A study of Mus musculus with 18 samples.

Results

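The regions described here are H3K9me3 peaks called in Kap1 KO mouse embryonic fibroblasts (MEFs) at places where the WT library had no peak. They were chosen by the positions of the peaks in the 2 deposited H3K9me3 lists. A Kap1 KO peak was taken when it shared no base with any WT peak, on the autosomes and without chr10:110000001-129993255 (mm9). This gave 2669 peaks, out of 4319 in the whole Kap1 KO list and out of 3061 on the same chromosomes, of which they were 87.2% by this rule. The remaining 392 Kap1 KO peaks overlapped a WT peak and are called shared. The WT list held 14009 peaks on the same chromosomes.

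The study examined how KAP1 acts on clusters of KRAB zinc finger genes, and the ChIP-seq lists used here cover H3K9me3 and H3K27ac in MEFs of each genotype, and KAP1 in the mouse hepatoma line Hepa 1.6. All MEFs were embryonic, with a strain background given as C57BL/6 in the labels and as C57BL/6J in the methods. The control MEFs carry floxed Kap1 alleles that were not excised. For the RNA-seq experiments the methods name the Kap1 KO cells a single stable clone, grown over a long time beside its WT counterpart, and whether the same clone served for ChIP-seq is not given in the sources used here. Each mark had 1 library per genotype, so that no difference between the genotypes has a replicate check and no p-value is given. The word "only" in Kap1 KO only states that no WT peak was called there.

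KAP1, encoded by Trim28, is a scaffold protein that KRAB zinc finger proteins bring to DNA, mostly at transposable elements. It recruits SETDB1, which methylates lysine 9 of histone H3, and the resulting H3K9me3 is a mark of silent heterochromatin. Other methyltransferases lay down the same mark without KAP1, above all at satellite repeats near centromeres. H3K27ac marks active promoters and enhancers.

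The lists give a position and a score for each peak but no read counts, so that the depth of the libraries is unknown. The cutoff score named in the methods is 80, yet the lowest score was 50.03 in the Kap1 KO H3K9me3 list and 50.01 in that of WT, and all peaks were used. Of the 18 fibroblast markers examined, 16 had an H3K27ac peak within 1 kb of a transcript start in WT and 15 in Kap1 KO cells, among them Col1a1, Fn1, Vim and Pdgfra in both. Of the 20 markers of other cell types, 3 had one in WT (Pecam1, Krt8 and Tubb3) and 2 in Kap1 KO cells. The deletion of Kap1 cannot be checked in these lists: the start of Trim28 had an H3K27ac peak in both genotypes. The end of chromosome 10 that the rule leaves out held 1124 further Kap1 KO only peaks, or 56.2 per Mb against 1.12 per Mb over the rest of the autosomes.

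The mouse mm9 sequence at the regions showed that they fall into different kinds. Windows of 300 bases at the centre of a region are printed for those on which the results turn. The first 4 windows come from regions in which no stretch of 50 bases occurs anywhere else in the assembly, and CG pairs are in capitals to show the contrast between the introns, which hold 2 CG pairs each, and the gene starts, which hold 35 in Zfp423 and 55 in Dock8.
Intron of Zfp423, chr8:90234560-90234859, plus strand: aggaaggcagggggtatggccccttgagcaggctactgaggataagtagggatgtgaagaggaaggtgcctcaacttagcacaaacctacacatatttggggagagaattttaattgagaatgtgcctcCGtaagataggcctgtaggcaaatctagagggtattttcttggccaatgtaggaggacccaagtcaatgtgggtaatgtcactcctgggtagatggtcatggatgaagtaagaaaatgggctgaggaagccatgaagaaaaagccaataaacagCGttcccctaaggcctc
Intron of Fam19a5, chr15:87538150-87538449, plus strand: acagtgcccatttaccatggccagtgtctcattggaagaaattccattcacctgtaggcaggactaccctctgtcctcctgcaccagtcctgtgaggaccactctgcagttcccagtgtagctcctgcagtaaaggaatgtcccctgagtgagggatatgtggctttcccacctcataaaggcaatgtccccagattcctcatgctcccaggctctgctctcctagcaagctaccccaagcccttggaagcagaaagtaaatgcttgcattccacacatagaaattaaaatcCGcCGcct
Start of Zfp423, chr8:90483088-90483387, plus strand: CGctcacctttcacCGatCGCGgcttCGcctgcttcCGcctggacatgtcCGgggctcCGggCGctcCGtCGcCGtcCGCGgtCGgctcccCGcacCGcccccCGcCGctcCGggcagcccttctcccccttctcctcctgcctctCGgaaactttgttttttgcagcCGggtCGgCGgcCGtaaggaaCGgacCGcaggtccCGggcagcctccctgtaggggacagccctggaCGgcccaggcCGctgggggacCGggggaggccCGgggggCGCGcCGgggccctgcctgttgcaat
Start of Dock8, chr19:25073883-25074182, plus strand: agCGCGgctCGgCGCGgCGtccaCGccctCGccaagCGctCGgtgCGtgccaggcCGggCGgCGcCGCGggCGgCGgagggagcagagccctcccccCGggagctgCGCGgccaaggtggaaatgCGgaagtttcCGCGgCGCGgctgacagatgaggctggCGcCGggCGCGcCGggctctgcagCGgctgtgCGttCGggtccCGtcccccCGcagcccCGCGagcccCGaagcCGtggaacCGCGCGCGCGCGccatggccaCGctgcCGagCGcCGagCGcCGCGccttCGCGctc

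The next windows come from regions whose sequence is repeated. The window at the centre of the highest-scoring region between 85 and 86 Mb of chromosome 1 has a copy in another region 2440 kb away, and 297 of the 300 bases, or 99.0%, are identical. Capitals mark the 3 bases that differ.
Copy in A530032D15Rik, chr1:85084252-85084551, plus strand: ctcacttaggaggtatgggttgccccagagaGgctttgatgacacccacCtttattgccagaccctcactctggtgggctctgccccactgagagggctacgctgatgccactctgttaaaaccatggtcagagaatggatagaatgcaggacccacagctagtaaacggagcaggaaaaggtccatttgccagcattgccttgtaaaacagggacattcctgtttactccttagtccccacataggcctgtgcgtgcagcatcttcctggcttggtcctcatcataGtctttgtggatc
Copy in Sp140, chr1:87519833-87520132, minus strand: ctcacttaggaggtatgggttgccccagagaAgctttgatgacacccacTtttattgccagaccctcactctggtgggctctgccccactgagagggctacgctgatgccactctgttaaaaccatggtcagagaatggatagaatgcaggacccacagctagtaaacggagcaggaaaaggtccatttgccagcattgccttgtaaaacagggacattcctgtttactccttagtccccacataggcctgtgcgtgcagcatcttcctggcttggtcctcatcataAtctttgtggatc

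Between 95 and 96 Mb of chromosome 5, the stretch of 1 Mb with the most regions, the copies can be exact. The window at chr5:95268528-95268827 is identical in all 300 bases to chr5:95591548-95591847, which lies 323 kb away. The region over the first copy had a score of 155 and that over the second, which covers most of the window, a score of 67.1. A read from within it matches both places equally well.
Copy on chromosome 5, chr5:95268528-95268827, plus strand: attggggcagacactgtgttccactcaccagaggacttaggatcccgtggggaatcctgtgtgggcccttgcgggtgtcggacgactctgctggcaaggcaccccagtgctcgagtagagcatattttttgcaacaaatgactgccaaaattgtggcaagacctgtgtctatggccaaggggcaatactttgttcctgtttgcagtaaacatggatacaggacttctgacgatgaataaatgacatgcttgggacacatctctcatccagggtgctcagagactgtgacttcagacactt

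The scores of the Kap1 KO only peaks were low. Their median was 59.2, with quartiles of 53.5 and 72.9. A score of at least 80 was reached by 509 of 2669, or 19.1% (exact Clopper-Pearson 95% confidence interval 17.6% to 20.6%, here as elsewhere covering counting error only). Among the shared Kap1 KO peaks, the median score was 89.99 and 223 of 392, or 56.9% (51.8% to 61.8%), reached 80. In the WT list 50.2% of the peaks reached it. The share of Kap1 KO peaks without a WT peak fell from class to class of the score, from 94.5% of 1502 peaks between 50 and 60, over 89.6% between 60 and 80, 82.7% between 80 and 100 and 67.5% between 100 and 200, to 42.7% of the 117 peaks at 200 or more. These values describe the rule, since both lists chose the regions.

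**Figure D1:**
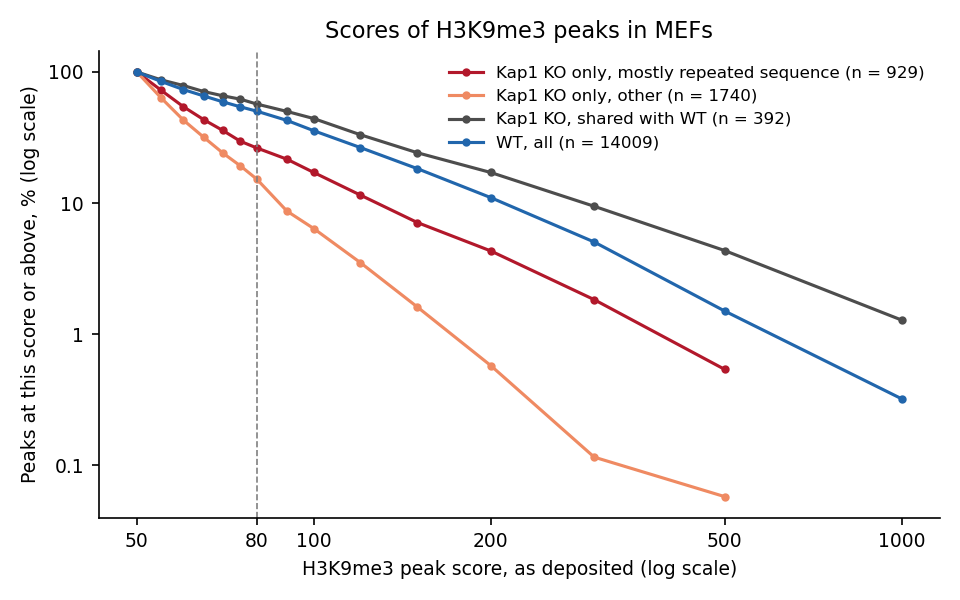
Share of H3K9me3 peaks (y axis, %, log scale) at or above a score (x axis, as deposited, log scale). Lines stand for Kap1 KO only peaks of mostly repeated sequence (929), other Kap1 KO only peaks (1740), shared Kap1 KO peaks (392) and all WT peaks (14009). The dashed line is the cutoff of 80, which 26.3%, 15.2%, 56.9% and 50.2% of them reach.

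Kap1 KO only peaks were also narrow. The median width was 382 bp, against 549 bp for shared peaks and 498 bp for WT peaks, and the full range was 132 to 16216 bp. Together they covered 1.56 Mb. Only 85 of them were 2 kb wide or more, and these made up 23.7% of the covered length. The wide ones lay on 8 chromosomes, 27 of them on chromosome 1 and 24 on chromosome 5.

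The median distance from a region to the closest WT peak was 66.9 kb. A WT peak lay within 100 kb of 1558 regions, or 58.4%, within 10 kb of 495, or 18.5%, within 1 kb of 100 and within 100 bp of 12. The rule chose the regions on this distance, which is given as a description. The 5 regions just inside the rule lay 13, 21, 23, 25 and 29 bp from a WT peak, with scores of 54.9, 50.1, 146, 84.3 and 67.8. The 5 Kap1 KO peaks just outside it shared 14, 17, 53, 65 and 74 bases with one, with scores of 56.9, 54.2, 79.4, 55.4 and 54.0.

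The regions were sorted by how often their sequence occurs in the assembly. Each stretch of 50 bases in a region was counted in the whole genome, on both strands. In 1311 of 2669 regions, or 49.1% (47.2% to 51.0%), every such stretch was unique. In 929, or 34.8% (33.0% to 36.6%), at least 50% of the stretches occurred more than once. These are called repeated regions, and the other 1740 single-copy regions for short. Windows of 382 bp placed every 50 kb over the same chromosomes were repeated in 8.97% of 47484 cases, WT peaks in 23.8% (23.1% to 24.5%) and shared Kap1 KO peaks in 59.7% (54.7% to 64.6%). The Kap1 KO only peaks thus stood between the WT peaks and the shared ones.

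Repeated regions had the higher scores. Their median score was 61.5 and 244 of 929, or 26.3% (23.5% to 29.2%), reached 80, against a median of 58.3 and 265 of 1740, or 15.2% (13.6% to 17.0%), for single-copy regions. The share of repeated regions was 425 of 1419, or 30.0%, between scores of 50 and 60 and 40 of 50 at 200 or more. They were wider, with a median of 449 bp against 366 bp. They also had a lower GC content, with a median of 46.2% against 49.8%, where windows had 41.9%. A gap of the assembly lay within 100 kb of 116 repeated regions, or 12.5%, and of 71 single-copy regions, or 4.08%, against 1.36% of windows.

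Some of the repeated regions were copies of each other. When regions that share at least 50 stretches of 50 bases were joined, 582 regions fell into 95 groups, and 69 of these groups, with 242 regions, lay on a single chromosome. The largest group held 160 regions spread over 19 chromosomes, with a median of 790 copies in the assembly. In contrast, a group of 40 regions lay wholly between 84972096 and 87508652 of chromosome 1 with a median of 8 copies, and a group of 20 between 66929003 and 67049675 of chromosome 7 with a median of 6 copies. A group of 7 lay between 92018084 and 92089394 of chromosome 3, at the Sprr2a genes, which encode small proline-rich proteins of the cornified envelope of skin. Regions of a group share their sequence and are not independent observations.

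The density of Kap1 KO only peaks differed 21.7-fold between chromosomes. Chromosome 8 held 430 (3.45 per Mb), chromosome 15 held 335 (3.34 per Mb), chromosome 11 held 280 (2.36 per Mb) and chromosome 5 held 318 (2.15 per Mb). These 4 chromosomes carried 51.1% of the regions on 20.7% of the bases. At the low end were the proximal part of chromosome 10 with 17 (0.159 per Mb), chromosome 4 with 25 (0.165 per Mb), chromosome 16 with 19 (0.200 per Mb) and chromosome 13 with 28 (0.241 per Mb). The median chromosome had 0.833 per Mb.

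The order was not that of the WT peaks. Chromosome 8 was densest in both, with 16.4 WT peaks per Mb. The rest of chromosome 10 had 12.0 WT peaks per Mb, the second highest density, but the lowest density of Kap1 KO only peaks, 1.32 of them for each 100 WT peaks. On chromosome 18 the 73 Kap1 KO only peaks stood beside 81 WT peaks, or 90.1 for each 100. The kinds differed between chromosomes as well. On chromosome 5, 230 of 318 regions, or 72.3%, were repeated, and on chromosome 1 137 of 227, or 60.4%. Chromosome 15 had 37 of 335, chromosome 11 had 32 of 280, or 11.4%, and chromosome 8 had 95 of 430, or 22.1%.

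**Figure D2:**
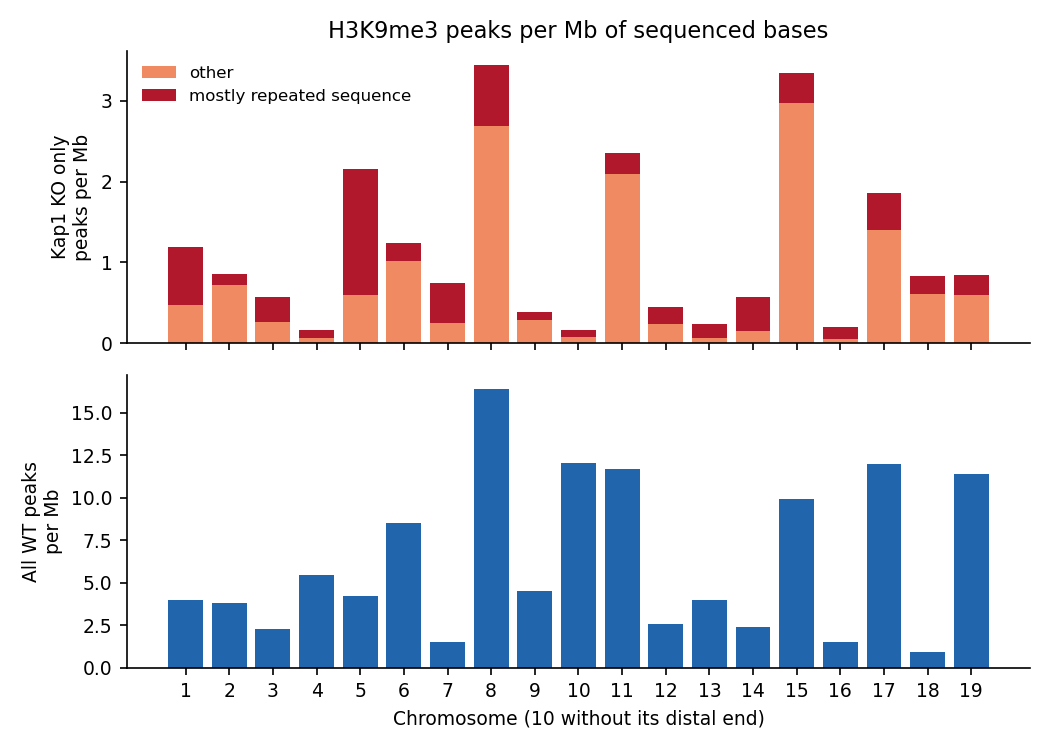
H3K9me3 peaks per Mb of sequenced bases (y axes) by chromosome (x axis), chromosome 10 without its distal end. Bars in the upper panel stand for Kap1 KO only peaks, split into mostly repeated sequence and other, and in the lower panel for all WT peaks. Chromosome 8 is highest in both panels, at 3.45 and 16.4 per Mb, while the rest of chromosome 10 has 0.159 and 12.0.

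Within chromosomes the regions were gathered in stretches. Of 2397 bins of 1 Mb, 1629 held none, 429 held 1 and 128 held 5 or more. These 128 dense bins, 5.34% of all bins, carried 1702 regions, or 63.8% (61.9% to 65.6%). In 86 of them the Kap1 KO only peaks outnumbered the WT peaks, and 11 had no WT peak at all. The median distance from a region to the next was 17.5 kb, against 7.77 kb between WT peaks and 238 kb between shared Kap1 KO peaks. These sets hold 2669, 14009 and 392 peaks. A larger set lies closer together, so that the distances do not compare how gathered the sets are.

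Dense bins were of different kinds. In 31 bins at least 50% of the regions were repeated, and in the other 97 fewer were. The repeated kind had a median GC content of 41.1%, close to the 41.6% of bins without a region. It held 15.9 protein-coding genes per Mb against 9.03 in bins without a region, and 2.62 shared peaks per Mb against 0.0867. The single-copy kind had a median GC content of 44.9% and 8.04 protein-coding genes per Mb, and 1151 regions lay in it. Of these, 16.3% reached a score of 80, against 37.9% of the 551 regions in dense bins of the repeated kind. Within the single-copy bins the regions themselves had a median GC content of 50.2%, above the 44.5% of windows in the same bins. The same direction was seen in bins with 1 to 4 regions (49.3% against 41.6%) and in dense bins of the repeated kind (45.1% against 41.4%).

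**Figure D3:**
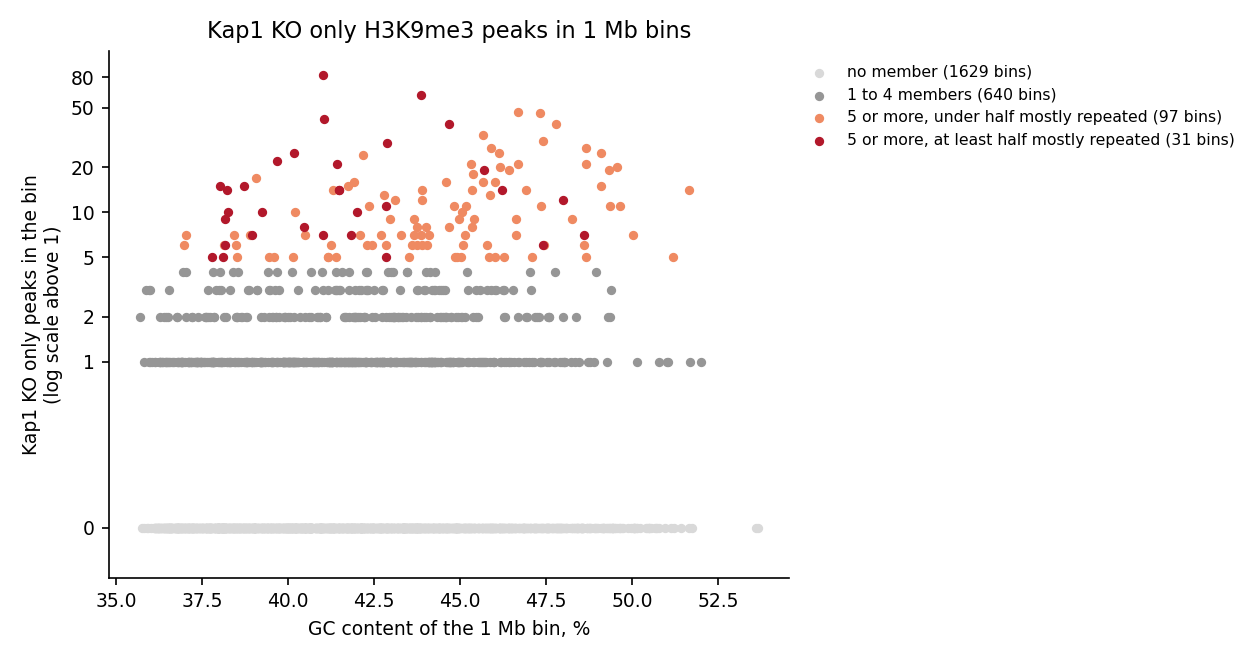
Number of Kap1 KO only H3K9me3 peaks (y axis, log scale above 1) in each 1 Mb bin of the autosomes against the GC content of the bin (x axis, %). Points are bins, coloured by the number of regions and by whether at least 50% of them are mostly repeated. The 97 dense bins of the single-copy kind have a median GC content of 44.9% and the 31 of the repeated kind 41.1%.

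The fullest bin was that between 95 and 96 Mb of chromosome 5, with 82 regions, all of them repeated, beside 8 WT peaks and no H3K27ac peak in either genotype. Its 13 protein-coding genes are almost all gene models with provisional names. Its highest score was 160, at chr5:95526173-95527335, outside any annotated gene. The bin before it held 42 regions, 40 of them repeated, with a top score of 148 at chr5:94322684-94323658. Next came the bin between 85 and 86 Mb of chromosome 1 with 61 regions, all repeated, a median score of 85.4 and 18 shared peaks. The bin between 87 and 88 Mb held 39. Bins are ranked by count, although only 0.344 and 0.656 Mb of these 2 bins are known bases. The Sp100, Sp110 and Sp140 genes, which encode related nuclear body proteins, lie between 87 and 88 Mb. Other full bins of the repeated kind covered the genes of the defensins, antimicrobial peptides, of chromosome 8 between 22 and 23 Mb with 25 regions, 14 of them repeated, and the Sprr and Lce genes of the skin barrier between 92 and 93 Mb of chromosome 3 with 22.

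The fullest single-copy bins were those between 87 and 88 Mb of chromosome 15 with 47 regions and between 90 and 91 Mb of chromosome 8 with 46. No region in either was repeated. Their median scores were 59.3 and 58.8, and 10 and 13 regions reached 80. The top score was 114 in the first bin, at chr15:87538031-87538569 in an intron of Fam19a5, which encodes a secreted chemokine-like protein. It was 138 in the second, at chr8:90164658-90165258, outside any gene. Such bins often followed each other. The longest runs were 4 Mb between 71 and 75 Mb of chromosome 15 with 85 regions, 4 Mb between 111 and 115 Mb of chromosome 11 with 64, and 4 Mb between 71 and 75 Mb of chromosome 8 with 39, the last mostly repeated. Runs of 3 Mb between 90 and 93 Mb of chromosome 8 and between 86 and 89 Mb of chromosome 15 held 97 and 91 regions.

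Some single-copy bins stood out by score. Some had no WT peak, as did some bins without a region. Between 71 and 72 Mb of chromosome 7, 16 regions had a median score of 91.0 and no WT peak stood beside them. Between 3 and 4 Mb of chromosome 3, at the start of the assembled sequence, 17 regions had a median score of 87.1 and a median width of 1007 bp, beside 3 WT peaks. On chromosome 2, the bins between 178 and 179 Mb and between 169 and 170 Mb held 25 and 20 regions with no WT peak, at median scores of 55.9 and 58.5. The number of H3K27ac peaks in dense bins differed between the genotypes in both directions. Of the 97 dense single-copy bins, 48 had fewer Kap1 KO than WT H3K27ac peaks, 37 had more and 12 had as many. Of the 31 of the repeated kind, 12 had fewer, 5 more and 14 as many. Bins without a region were split as well: of 1629, 705 had fewer, 643 more and 281 as many. The bin between 71 and 72 Mb of chromosome 15, with 14 regions, had 6 WT H3K27ac peaks and none of Kap1 KO. The run between 111 and 115 Mb of chromosome 11 had 64 in WT against 43, and the bin between 117 and 118 Mb of chromosome 8, over Wwox, had 11 against 5. In the other direction, the run between 76 and 78 Mb of chromosome 18, with 15 regions, had 13 WT H3K27ac peaks and 22 of Kap1 KO. The whole of chromosome 18 was shifted the same way, with 829 WT and 1240 Kap1 KO H3K27ac peaks, so that this run does not stand apart. The runs between 169 and 171 Mb of chromosome 2 and between 80 and 83 Mb of chromosome 11 had 15 against 21 and 56 against 64.

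The 10 highest scores belonged with 1 exception to repeated regions. The highest, 736, stood at chr8:19916501-19923031, 6531 bp wide, in an intron of the non-coding gene 2610005L07Rik. A second region near that gene, chr8:20025108-20038127, had a score of 515 and a width of 13020 bp. Chromosome 1 gave 3 of the 10, all over C130026I21Rik, with 558 at chr1:84988272-84991944, 521 at chr1:85080936-85087867 and 381 at chr1:85227481-85230640. Chromosome 5 gave 3 more in the neighbourhood of the Speer genes, spermatogenesis-associated glutamate-rich genes, with 507 at chr5:14950773-14956782, 476 at chr5:15197418-15203569 and 434 at chr5:15158275-15162663. The region at chr19:39336343-39339078, in an intron of the cytochrome P450 gene Cyp2c29, scored 429. The exception was chr12:114662325-114663664 with a score of 549, where 32.4% of the stretches were repeated and the GC content was 64.03%, over annotated microRNA genes.

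Apart from the region of 13020 bp on chromosome 8 named above, the widest lay at the same copies on chromosome 1 and at a different, single-copy place of that chromosome. The widest of all, 16216 bp at chr1:85265704-85281919, had a score of only 85.4, and a region of 14017 bp over Sp110 at chr1:87482200-87496216 had 54.4. The single-copy place lay over Ugt1a1, which conjugates bilirubin, over Heatr7b1 and over Trpm8, the channel that senses cold. There 9 regions stood between 90107983 and 90207591, a span of 99.6 kb of which they covered 43.4 kb, or 43.6%. Their scores ran from 79.4 to 255, and the widest, 15412 bp within Heatr7b1, was the second widest of all 2669. In the same span WT cells had 2 H3K9me3 peaks, and H3K27ac had 2 peaks in WT and 3 in Kap1 KO cells.

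Kap1 KO only peaks lay inside an annotated gene slightly less often than windows. The share was 974 of 2669, or 36.5% (34.7% to 38.4%), against 42.3% of windows and 32.5% (31.7% to 33.2%) of WT peaks. Introns alone accounted for 755, and 219, or 8.21%, touched an exon, against 6.82% of windows. A transcript start lay within 1 kb of 181 regions, or 6.78% (5.86% to 7.80%), against 4.97% of windows, 7.02% of WT peaks and 17.9% (14.2% to 22.0%) of shared Kap1 KO peaks. Among the 509 regions at a score of 80 or more the share was 13.4% (10.5% to 16.6%).

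The genes whose bodies held the most regions were of both kinds. C130026I21Rik on chromosome 1 held 53, all repeated, and 27 of them reached 80. Zfp423, a zinc finger transcription factor known from adipocyte commitment, held 36 in 298 kb, none repeated, with scores from 50.5 to 124. Wwox, an oxidoreductase gene that spans a fragile site, held 29 in 913 kb. Accn1, which encodes an acid-sensing ion channel, held 27. Sdk2, a cell adhesion gene of synapses, held 22, and the axonemal dynein gene Dnahc8 held 21. These genes held WT H3K9me3 peaks too: 16 in C130026I21Rik, 3 in Zfp423, 16 in Wwox, 5 in Accn1, 5 in Sdk2 and 30 in Dnahc8. Efcab6 held 15 and Nkd1, an inhibitor of Wnt signalling, held 13 in 73.5 kb, where WT cells had no H3K9me3 peak. The gene model Gm20388 also held 15, beside 134 WT peaks, but it spans 4435 kb and overlaps many other genes. Sp140 held 12, all repeated. None of the regions in Wwox or Accn1 touched an exon, and in Zfp423 5 of 36 did. In all, 471 genes held at least 1 region and 43 held 5 or more.

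Near the starts of protein-coding genes, regions of the repeated kind again had the highest scores. A region lay within 1 kb of a start of 101 of 21172 protein-coding genes. The highest scores stood at 4930572O03Rik (434), at Sp110 and Sp140 (350, the same region), at Sprr2a2 and Sprr2a3 (316, the same region) and at 2 gene models named A530032D15Rik (289). Single-copy regions stood at Ugt1a1 (255), Heatr7b1 (213), Trpm8 (189), the sperm motility kinase gene Smok2b (138) and Dock8 (136), and repeated ones at Gm9758 (209), Gm10471 (151), Speer4d (150) and Speer4c (139). Dock8 encodes a guanine nucleotide exchange factor of immune cells. Copies with near-identical sequence, such as the Speer and Sprr2a genes, can exchange reads, so that the member of a family at which a peak stood is uncertain.

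Genes of the lists examined were set beside all genes. Of all 34325 genes, 1.49% had a region in the body or within 1 kb of a start, and 8.16% had a WT peak there. No region stood at 23 genes of the KAP1 silencing machinery, 11 histone demethylases and methyltransferases or 18 fibroblast markers. The same held for 20 markers of other cell types, 11 cell cycle and p53 genes and 42 Hox genes. Lists this short can hold none at the share over all genes. Imprinted genes had 2 of 35, or 5.71%, a region with a score of 53.3 at Ube3a and 1 of 51.2 at Igf2, the fetal growth factor. Of the 35, 15 had a WT peak. Germline genes had 2 of 26, or 7.69%, Piwil1 at 60.7 and Dazl at 56.5, while 8 had a WT peak. In the region at Ube3a 100% of the stretches were repeated. The median gene length was 24.9 kb in the imprinted and 34.8 kb in the germline list, against 5.93 kb over all genes. A longer gene has more room for a region, and the shares were not matched for length. Of 370 genes named Zfp, 4 or 1.08% had a region (Zfp423, Zfp831, Zfp488 and Zfp612), and 81 or 21.9% a WT peak. Olfactory receptor genes had 1 of 1185 (0.0844%), vomeronasal receptor genes 2 of 431 (0.464%) and protocadherin genes 1 of 36 (2.78%). The median lengths of these genes were 0.957, 1.02 and 3.71 kb.

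A KAP1 peak of Hepa 1.6 cells overlapped 28 regions, or 1.05% (0.698% to 1.51%), against 0.647% of windows, 9.95% (7.17% to 13.3%) of shared Kap1 KO peaks and 14.5% (13.9% to 15.1%) of WT peaks. KAP1 was mapped in another cell type there.

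H3K27ac was rare at the Kap1 KO only peaks in both genotypes. A WT H3K27ac peak overlapped 26 of 2669, or 0.974% (0.637% to 1.42%), against 4.16% of windows, and a Kap1 KO H3K27ac peak overlapped 10, or 0.375% (0.180% to 0.688%), against 4.06% of windows. Of the 31 regions with either, 5 had both, 21 had WT only and 5 had Kap1 KO only. WT H3K9me3 peaks showed another pattern, with 1.38% (1.19% to 1.58%) over a WT and 4.78% (4.44% to 5.15%) over a Kap1 KO H3K27ac peak. The intervals count each region as independent, which neighbouring regions and copies are not, so that they give no test of a difference.

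The distance to H3K27ac was large too. The median distance from a region to the closest H3K27ac peak was 152 kb for the WT library and 154 kb for that of Kap1 KO, against 46.5 and 43.7 kb from windows and 23.8 and 19.4 kb from WT H3K9me3 peaks. Within 10 kb, 160 regions had a WT and 126 a Kap1 KO H3K27ac peak, or 5.99% and 4.72%, where windows had 23.5% and 23.6%. This held inside the dense bins of the single-copy kind, where 5.91% (4.62% to 7.43%) of regions and 20.9% (19.1% to 22.8%) of windows had a WT H3K27ac peak within 10 kb, and 3.04% (2.13% to 4.20%) against 20.7% (18.9% to 22.5%) a Kap1 KO one. Those bins as a whole held 1322 WT H3K27ac peaks, or 13.7 per Mb, and 1241 of Kap1 KO, or 12.9 per Mb, so that the mark was present in the bins but away from the regions. Of the WT H3K27ac peaks there, 28.2% had no counterpart in Kap1 KO cells, against 22.8% in bins without a region, and in the reverse direction the shares were 23.3% and 21.5%. The split by sequence was uneven at the regions themselves. Single-copy regions overlapped a WT H3K27ac peak in 18 cases and one of Kap1 KO in 4, and repeated regions in 8 and 6.

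**Figure D4:**
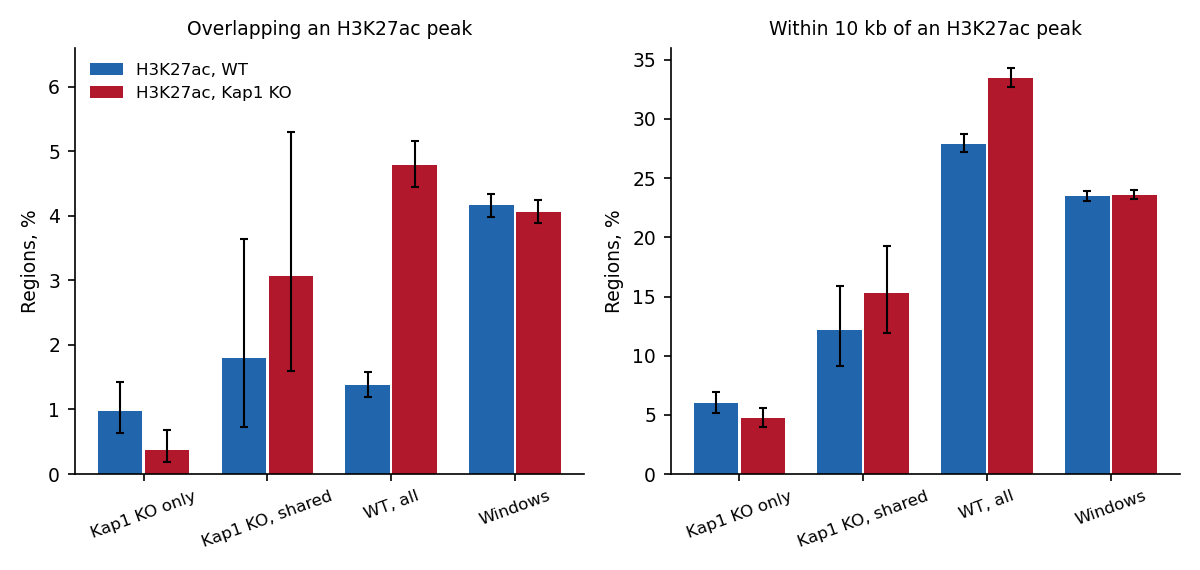
Share of regions (y axes, %) that overlap an H3K27ac peak (left) or lie within 10 kb of one (right), for Kap1 KO only, shared Kap1 KO and all WT H3K9me3 peaks and for windows of 382 bp. Bars are WT and Kap1 KO H3K27ac, and error bars are exact 95% intervals that cover counting error only. Kap1 KO only peaks are lowest in both panels, at 0.974% and 0.375% and at 5.99% and 4.72%.

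The regions over Kap1 KO H3K27ac were mostly at gene starts or copies. The highest score, 350, stood at chr1:87496257-87498118 over the start of Sp140, with an H3K27ac score of 266 in Kap1 KO cells and no WT peak. The second, 153 at chr8:20021181-20025035, was 768 bp from a start of 2610005L07Rik, again with H3K27ac in Kap1 KO cells only, at 832. The third, 120 at chr1:9535513-9536079, stood at the start of Rrs1, a ribosome biogenesis gene, where H3K27ac scored 3100 in both genotypes. That value is shared by 9975 WT and 7710 Kap1 KO H3K27ac peaks and does not rank them. The fourth, 69.2 at chr1:87546981-87547511 in Sp100, had an H3K27ac score of 69.0 in the WT library against 391. The fifth, 68.9 at chr1:85323607-85324548 over Gm2619, had 251 in Kap1 KO cells and no WT peak.

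At the starts of protein-coding genes, H3K27ac was more often missing in Kap1 KO cells where a Kap1 KO only peak stood. Of the 101 genes with a region within 1 kb of a start, 21, or 20.8%, had an H3K27ac peak within 1 kb of a start in WT. In Kap1 KO cells 12 did, or 11.9%, and 78 had one in neither genotype. The shares over all protein-coding genes were 55.2% in WT and 53.9% in Kap1 KO cells. Of the 21, 11 had none in Kap1 KO cells, or 52.4% (29.8% to 74.3%). Over all protein-coding genes on these chromosomes, 570 of 11696 with a WT peak, or 4.87%, had none. That background was not matched for the WT H3K27ac score. Where a region lay anywhere in the gene body, 21 of 88 genes, or 23.9% (15.4% to 34.1%), had none. The first count, 11 of 21 genes, is small, and the libraries have no replicate. Without repeated regions it was 11 of 16, with the same 11 genes. With only H3K27ac peaks of at least 80 it was 11 of 18, but these were other genes in part: Phactr3 and Sgcz no longer counted as having a WT peak, and Frmd4b and Gm5465, whose Kap1 KO scores were 62.2 and 76.0, counted as without one.

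The 11 genes were Zfp423, Dock8, Nr3c2, Rora, Rftn1, Pogk, Dcp1b, Etnk2, Phactr3, Sgcz and A930038C07Rik, listed here after their values were seen. Zfp423, Dock8 and Sgcz had a region of at least 80. The WT H3K27ac score was 2625 at the start of Zfp423, 3100 at Rftn1, which encodes a lipid raft protein, 1743 at Nr3c2, the mineralocorticoid receptor, 778 at Dcp1b, a decapping factor, 695 at Dock8, 684 at the nuclear receptor gene Rora and 553 at Pogk, which encodes a protein with a KRAB domain. It was near the lower end of the list at Etnk2 (124), Phactr3 (63.5) and Sgcz (52.0), and 518 at A930038C07Rik. The regions at these 11 starts were all of unique sequence, with a median GC content of 71.3% and a median of 10.9 CG pairs per 100 bases, against 48.8% and 0.926 over all 2669. Their scores were low, from 54.9 to 136 with a median of 67.4. The closest WT H3K9me3 peak was 85 bp away at Zfp423 and at least 1 kb away at the other 10.

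The 10 genes that kept H3K27ac differed from these in sequence. Only 3 of the 10 regions at them were wholly of unique sequence, and the median GC content was 54.3%. The regions at Trpm8 and Rrs1 came close to unique, with 0.605% and 3.09% of their stretches repeated. Trpm8, Rrs1, Fancl and Clcn4-2 had the score of 3100 in both genotypes. At Frmd4b the score was 684 in the WT library and 62.2 in the other, and at Slit3, which encodes a guidance ligand, 1775 and 535. Sp100 went the other way, from 69.0 to 391. Sp110 and Sp140 had a peak in Kap1 KO cells only. Scores of separate libraries are not on a common scale of size and are given as they stand.

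Zfp423 held the most regions among genes whose regions were all single-copy, and is shown as an extreme example. Between 60 kb before and 360 kb after its 5′ end, 44 Kap1 KO only H3K9me3 peaks were called, beside 1 shared peak within the first 2 kb of the gene and 6 WT peaks, of which 3 lay within the gene. The highest WT score, 369, belonged to a peak in the 3 kb before the start, so that the start was flanked by H3K9me3 in WT cells as well. The highest score within the gene, 124, stood at chr8:90234375-90235044 in an intron, whose central window is printed above, and the next, 115, at chr8:90270085-90270769. The region at the start, chr8:90483006-90483470, touched an exon and had a score of 104 and a GC content of 75.9%. WT cells had 4 H3K27ac peaks in the interval, 3 of them within the gene, and Kap1 KO cells had none. Of the 40 protein-coding genes with at least 5 regions in the body, 6 had H3K27ac at a start in WT cells, while 4 had it after the deletion. Besides Zfp423, Phactr3 and Plxna4 had it in WT only, and Sp140 in Kap1 KO cells only.

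**Figure D5:**
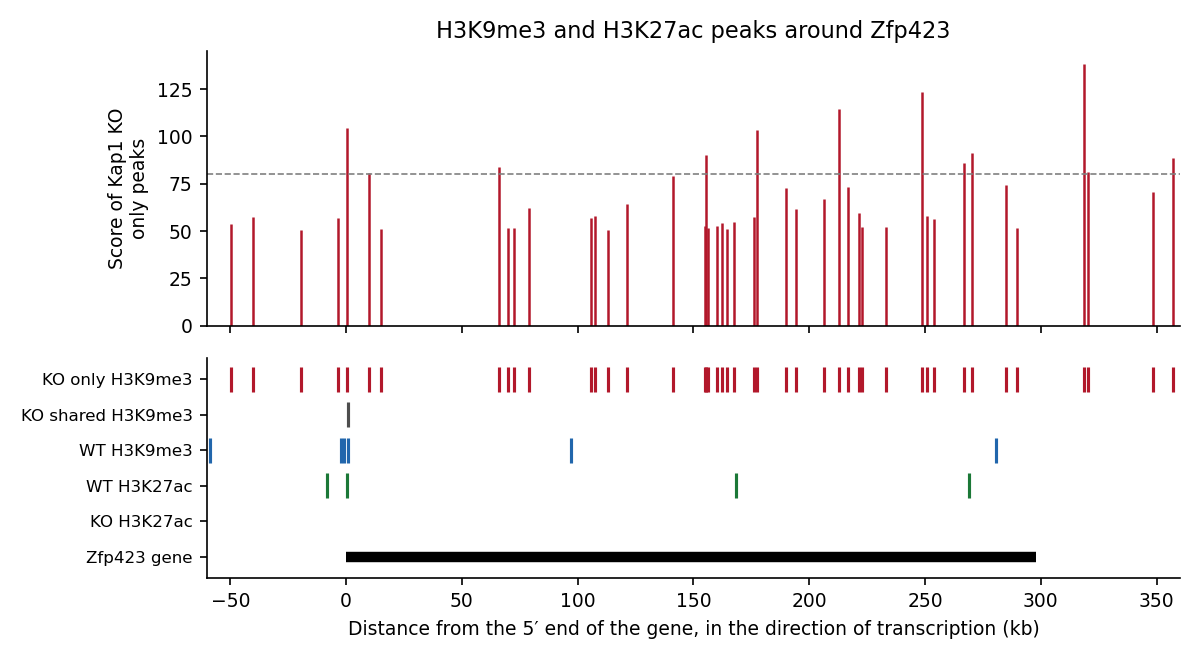
Peaks around Zfp423 by distance from the 5′ end of the gene in the direction of transcription (x axis, kb). Upper panel, score (y axis) of the 44 Kap1 KO only H3K9me3 peaks, with the cutoff of 80 dashed. Lower panel, position of each kind of peak as a vertical tick, and the gene as a bar. WT cells have 4 H3K27ac peaks in the interval and Kap1 KO cells none.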

How the data were processed

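Peak lists of 5 ChIP-seq libraries were used, H3K9me3 and H3K27ac in WT and Kap1 KO MEFs and KAP1 in Hepa 1.6 cells. The authors deposited for each peak a position and a score. Per the labels and methods, reads of sonicated chromatin were mapped to mm9 with Bowtie2 2.2.1 in a sensitive local mode and MACS 1.4 compared them with the total input to find peaks. How reads that match several places were handled is not given in the sources used here. The SETDB1 list was not used, nor were libraries of other cells, the inputs and the RNA-seq.

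Members were found with a minimum overlap of 1 base, and all counts of overlaps of the Kap1 KO list were equal to those of bedtools 2.31.1. The gene models were those of GENCODE vM1 (mm9). Copies of each 50-mer were counted in the mm9 assembly, and repeats were not annotated by type. Windows of 382 bp every 50 kb, free of unknown bases, served as background. Densities refer to known bases. Shares carry exact Clopper-Pearson intervals at 95%. No test was run between genotypes, since each had 1 library per mark. The overlap and copy counts were tested on simulated data. Members, gene lists and the regions and genes named (the highest scores, the widest, the fullest bins, the closest to the rule's limit, those over Kap1 KO H3K27ac, at starts and in bodies) were chosen with earlier results of these data known. Overlaps and copies were computed with numba 0.67.0, pysam 0.24.0 and pandas 2.3.3 under Python 3.11.15, intervals with scipy 1.17.1 and plots with matplotlib 3.10.9.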

Additional observations from a re-analysis of the deposited data

How the results depend on the processing

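Of 83 alternative values, 54 stayed within the 95% interval of the reported share, within the quartiles of the widths or within 1.5 times the reported count, and 29 moved. With a score of at least 80 asked of Kap1 KO peaks, 509 regions remained (100% at 80, median width 663 bp, 40.7% in genes, 13.4% near starts, 55.6% in dense bins). With 80 asked in both lists, 559 regions were Kap1 KO only (100%, 667 bp, 42.0%, 14.1%, 54.7%, and 1.61% over WT H3K27ac). With distal chromosome 10 kept, 31.3% reached 80, 32.5% lay in genes, 5.48% near starts and 74.5% in dense bins. With peaks joined, 17.2% reached 80, 5.69% lay near starts and 58.8% in dense bins. With the WT list shortened by score, 20.8% reached 80. Without repeated regions, an alternative added after seeing the data, 1740 remained, 15.2% reached 80 and 5.75% lay near starts. Protein-coding genes alone gave 33.3% in bodies and 4.42% near starts, a distance of 5 kb to a start 16.5%, and H3K27ac within 1 kb 1.46% (WT) and 0.824% (Kap1 KO). The cause of these shifts was not tested beyond what each setting leaves out. The share of starts without Kap1 KO H3K27ac ran from 48.0% to 68.8% over 4 settings, all added later. No paired analysis was possible because each genotype had 1 library per mark and no test was run. Depth is unknown, so that signal too weak to be called in the WT list cannot be seen.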
